A study of Mus musculus with 12 samples.

Results

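The 10 genes described here encode the enzymes and transporter that bring cystine into the cell, make cysteine from methionine, build glutathione, recycle it and break it down. They were chosen by name for these roles: Slc7a11, Mat2a, Cbs, Cth, Gclc, Gclm, Gss, Gsr, Chac1 and Ggct. All 10 were found among the 53801 gene identifiers counted, and all 10 were among the 15828 genes tested. The libraries were made from poly(A) RNA of the mouse myoblast line C2C12. The Ctrl-DMSO and Ctrl-Thap groups are control cells given the solvent DMSO or thapsigargin for 6 h. The Sh2-DMSO and Sh2-Thap groups are cells with Cebpg knocked down, given the same treatments for the same 6 h. Each group held 3 libraries, 12 in all. Thapsigargin blocks the SERCA calcium pump and so causes stress of the endoplasmic reticulum (ER). The labels name 1 knockdown construct, Sh2, so a knockdown effect and an off-target effect of that construct cannot be told apart. The construct of the control cells is not stated in the labels. The growth protocol speaks of HeLa cells, while the source and cell line fields name C2C12.

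Cysteine is the scarce building block of glutathione, the main thiol antioxidant of the cell. It enters as cystine through an exchanger made of Slc7a11 and its partner Slc3a2, or is made from methionine by way of S-adenosylmethionine, homocysteine and cystathionine. Glutathione is then assembled by glutamate-cysteine ligase and glutathione synthetase, kept reduced by glutathione reductase, and degraded in the cytosol by Chac1 and related enzymes. Several of these genes are known targets of ATF4, the transcription factor of the integrated stress response, which can pair with C/EBP gamma, the product of Cebpg. Others are known targets of NRF2, the product of Nfe2l2.

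Libraries held 29.4 to 47.7 M reads assigned to genes. Levels are counts per 1 M gene reads after TMM scaling (CPM), as mean ± SD with n = 3 unless values are given by library. Cebpg itself stood at 54.6 ± 5.2 CPM in Ctrl-DMSO and 4.51 ± 0.722 CPM in Sh2-DMSO. Under thapsigargin it stood at 216 ± 3.96 CPM in Ctrl-Thap and 5.66 ± 0.419 CPM in Sh2-Thap. All 7 myoblast markers listed reached 1 CPM in Ctrl-DMSO and 6 of 7 did in the other groups, where Pax7 fell short. Lists of leukocyte, epithelial, endothelial and adipocyte markers each summed to at most 32.8 CPM in any library, against at least 4980 CPM for the myoblast list. Most of the myoblast sum came from Vim, a gene not confined to myoblasts, at 3390 ± 9.53 CPM in Ctrl-Thap and 8870 ± 575 CPM in Sh2-DMSO. Myod1 averaged 107 to 151 CPM, Des 545 to 1190 CPM and Myf5 61.8 to 416 CPM by group. With thapsigargin Myod1 and Des fell and Myf5 rose in both cell populations. Ptprc, Cd3e, Adgre1, Epcam, Krt18 and Cidec had no read in Ctrl-DMSO. Those of the 4 lists that reached 1 CPM there were Krt14 at 14.4, Tek at 3.86, Cd68 at 3.83, Csf1r at 1.53 and Fabp4 at 1.44 CPM. Krt14 averaged 23.6 CPM in Sh2-Thap, and Krt18 averaged 1.44 CPM in Ctrl-Thap and 3.92 CPM in Sh2-Thap. The endothelial sum was 4.19 to 5.11 CPM in Ctrl-DMSO and 27.5 to 32.3 CPM in Ctrl-Thap, most of it from Tek. It was 5.9 to 6.95 CPM in Sh2-DMSO and 18.4 to 21.1 CPM in Sh2-Thap. The epithelial sum was 14.3 to 15.1 CPM in Ctrl-DMSO, 18.7 to 21.3 CPM in Ctrl-Thap, 15 to 17.5 CPM in Sh2-DMSO and 29.8 to 32.8 CPM in Sh2-Thap. The part of these transcripts in the results was not tested. In bulk libraries, fewer cells that express a gene and less of its RNA per cell cannot be told apart. The labels do not say whether replicates were separate cultures; if not, each p-value covers technical spread alone.

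With thapsigargin, control cells raised Slc7a11 for cystine import, Cth for cystathionine cleavage, Gclc and Gclm for glutamate-cysteine ligation and Chac1 for glutathione breakdown, and lowered those of glutathione synthetase and reductase. In numbers, 5 of the 10 genes were called higher (Slc7a11, Cth, Gclc, Gclm and Chac1), 2 were called lower (Gss and Gsr) and 3 were not called, at an adjusted p under 0.05. Over all genes tested, 37.7% were called higher and 37.0% lower in that comparison. In knockdown cells thapsigargin raised 5 (Slc7a11, Cth, Gclc, Chac1 and Ggct) and lowered 3 (Mat2a, Gss and Gsr), where 35.4% of all genes were called higher and 34.4% lower. The median log2 change of the 10 genes was 0.64 in control cells and 0.21 in knockdown cells, beside 0.0 over all genes in both.

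Knockdown cells were then set against control cells within each treatment. In DMSO, 6 of the 10 genes were higher in knockdown than in control cells (Cbs, Gclc, Gclm, Gss, Gsr and Ggct) and 2 were lower (Slc7a11 and Cth), beside 25.0% of all genes called higher and 26.5% lower. Under thapsigargin, 3 were higher (Gss, Gsr and Ggct) and 6 were lower (Slc7a11, Mat2a, Cth, Gclc, Gclm and Chac1), beside 28.5% of all genes called higher and 28.4% lower. The test of the difference between the thapsigargin effects asked whether the response itself differed. It was lower in knockdown cells for 6 genes (Slc7a11, Mat2a, Cth, Gclc, Gclm and Chac1) and higher for 1 (Gss), beside 17.6% of all genes called higher and 17.7% lower. The median of that difference was -0.72 over the 10 genes and 0.01 over all genes. Genes outside the 10 changed in large numbers too. These shares describe the 10 genes, and whether they differ from other genes as a set was not tested. The plot of log2 changes sets the 5 comparisons side by side.

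**Figure D1:**
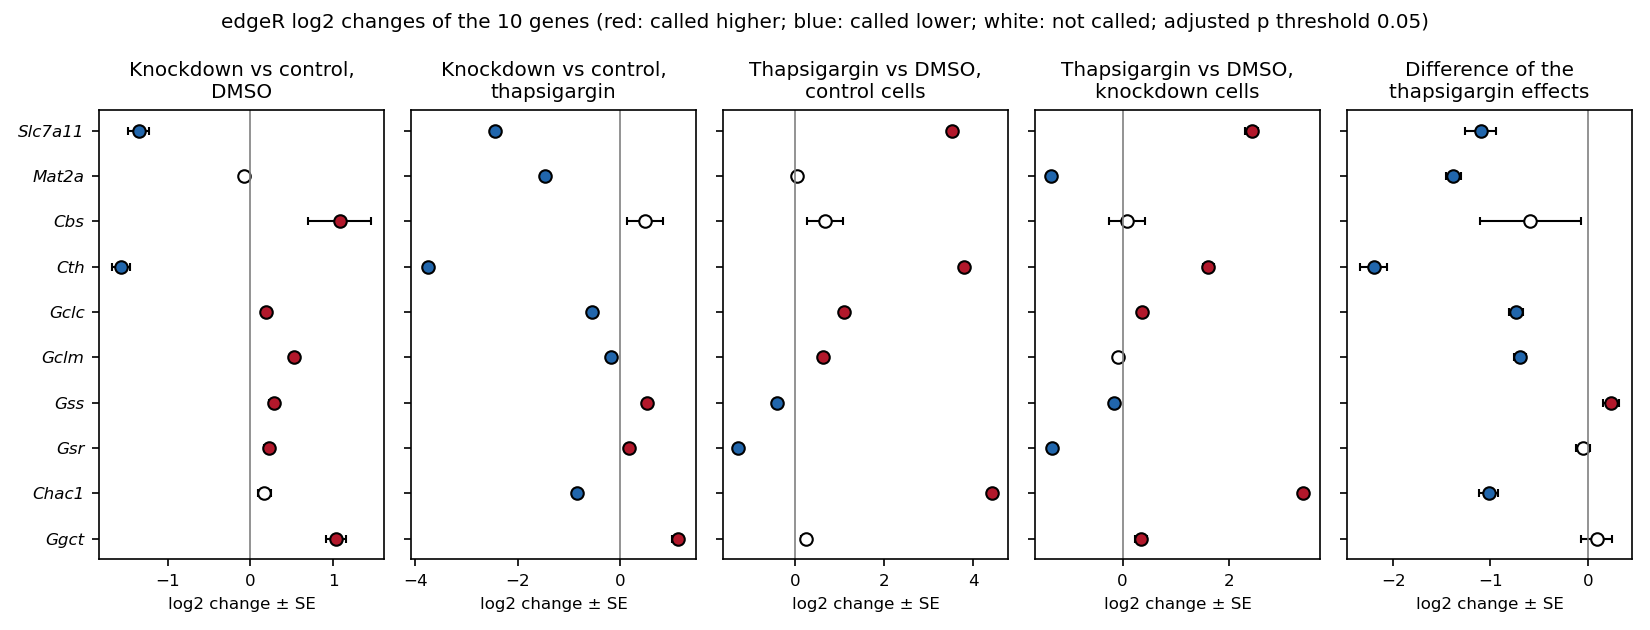
Log2 changes (horizontal axis) of the 10 genes (vertical axis) in the 5 comparisons, with the approximate SE as bars; red points were called higher, blue points lower and white points not called. In the right panel 6 points lie below 0 and are called, from Cth at -2.20 to Gclm at -0.70, and Gss at 0.24 is the 1 called above 0.

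Promoter sequence was read for the 7 genes with an entry in the RefSeq table for GRCm38.p6, which covers 250 bases before to 50 bases after each start site; Cth, Gclc and Gsr had none. The search was for the core of the composite element bound by C/EBP and ATF proteins together, TGATGNAA, on both strands. It was found in the windows of Slc7a11 and Chac1, 2 of 7, beside 3.97% of all 32851 promoters in the table. These sequences are shown because both genes rose many-fold with thapsigargin and rose less in knockdown cells. The first is chr3:50443614-50443863 on the minus strand and the next is chr2:119350992-119351241 on the plus strand, both in GRCm38.p6, each the 250 bases before the start, 5′ to 3′ on the strand of the gene, with the matched core in capitals.
Slc7a11: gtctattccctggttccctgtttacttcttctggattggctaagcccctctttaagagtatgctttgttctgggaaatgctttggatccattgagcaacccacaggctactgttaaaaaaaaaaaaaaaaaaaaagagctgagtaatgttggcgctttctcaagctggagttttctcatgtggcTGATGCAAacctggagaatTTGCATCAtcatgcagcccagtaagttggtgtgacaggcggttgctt
Chac1: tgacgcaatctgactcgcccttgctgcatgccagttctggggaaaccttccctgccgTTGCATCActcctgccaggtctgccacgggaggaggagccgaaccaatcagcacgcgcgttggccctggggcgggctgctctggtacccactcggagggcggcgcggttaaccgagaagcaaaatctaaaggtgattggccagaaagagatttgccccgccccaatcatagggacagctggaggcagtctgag
In Slc7a11 the matches were TGATGCAA at bases -66 to -59 from the start site and TTGCATCA, the same letters on the other strand, at -47 to -40. In Chac1 the match was TTGCATCA at -193 to -186.

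The core of the antioxidant response element, TGACNNNGC on both strands, the kind of site NRF2 is known to bind, was found in Gclm and Ggct, 2 of 7, beside 12.4% of all promoters. The knockdown raised Gclm in DMSO, and the thapsigargin effect on Gclm too was lower in knockdown cells (difference -0.70). So was that on Mat2a (difference -1.38), whose window held no match of either core. Whether motif and response go together was not tested. Gclm is printed for comparison from chr3:122245307-122245556 on the plus strand of GRCm38.p6, with the antioxidant core in capitals.
Gclm: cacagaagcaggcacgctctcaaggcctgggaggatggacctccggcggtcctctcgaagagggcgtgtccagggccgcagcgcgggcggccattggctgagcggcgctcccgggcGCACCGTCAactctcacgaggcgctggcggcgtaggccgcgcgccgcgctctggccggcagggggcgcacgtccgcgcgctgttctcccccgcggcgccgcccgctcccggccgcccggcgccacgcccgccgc
The match in Gclm, GCACCGTCA, lies at -134 to -126. Those in Ggct are GCGACGTCA at -174 to -166 and TGACGCTGC at 5 to 13 after the start. The C/EBP palindrome TTGCGCAA had no match in the 7 windows, beside 0.183% of all promoters. An ER stress response element, CCAAT and CCACG parted by 9 bases, likewise had no match, beside 0.119%. No 2 of the 4 motifs matched overlapping bases in these windows. A match describes the letters of a window and is not a measured binding site. The map of matches places all 6 along the windows.

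**Figure D2:**
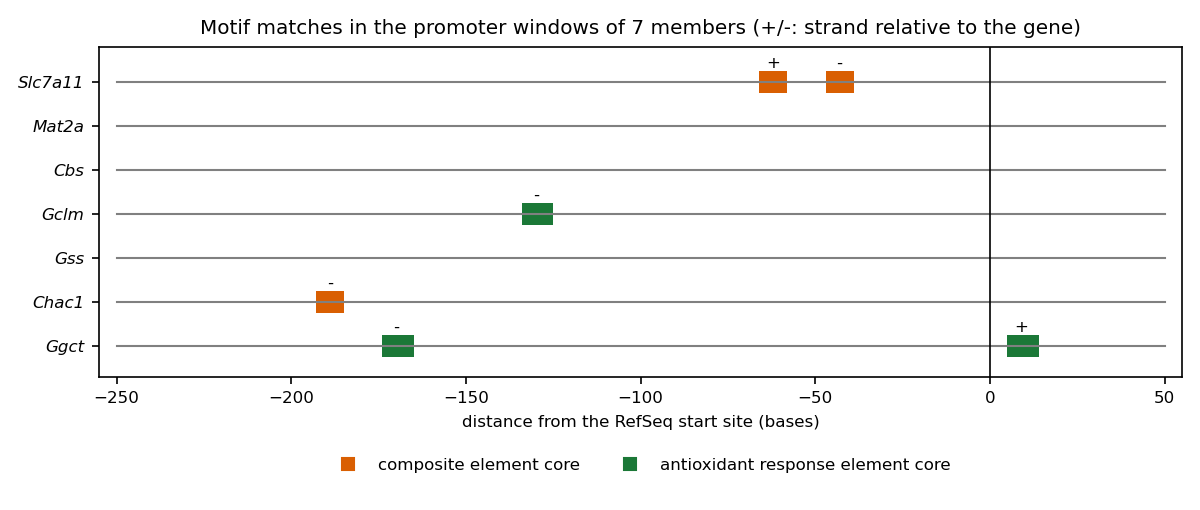
Matches of the searched motifs (coloured blocks) along the promoter windows of 7 genes, by distance in bases from the RefSeq start site at 0. Slc7a11 holds 2 composite cores and Chac1 holds 1, Gclm holds 1 antioxidant core and Ggct holds 2, and the other 3 windows hold none.

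Cystine import was represented by Slc7a11 (ENSMUSG00000027737, chromosome 3, 49892526 to 50443614, minus strand, GRCm38), the light chain that carries cystine in and glutamate out. Ctrl-DMSO libraries held 9.55, 6.24 and 9.62 CPM and Ctrl-Thap libraries 101, 97.3 and 94.2 CPM. Sh2-DMSO libraries held 3.49, 2.95 and 3.53 CPM and Sh2-Thap libraries 18.2, 17.4 and 17.8 CPM. No libraries of any 2 groups overlapped, and the order ran from Sh2-DMSO through Ctrl-DMSO and Sh2-Thap up to Ctrl-Thap. Thapsigargin raised the mean 11.5-fold in control cells (log2 3.52, SE 0.09, adjusted p = 9.54e-22) and 5.36-fold in knockdown cells (log2 2.42, SE 0.12, adjusted p = 1.3e-15). The difference of those effects was -1.10 on the log2 scale (SE 0.16, adjusted p = 5.41e-06). Knockdown cells held 39.2% of the control level in DMSO (adjusted p = 3.12e-09) and 18.3% under thapsigargin (adjusted p = 1.2e-18). Alignments of 373 bases of an annotated Slc7a11 transcript are 96.0% identical to Tuba1a, 96.2% to Tuba1b and 95.4% to Tuba1c. Mean Tuba1a was 690 CPM in Ctrl-DMSO, 248 in Ctrl-Thap, 914 in Sh2-DMSO and 505 in Sh2-Thap. In Ctrl-DMSO, mean Tuba1b was 433 CPM and mean Tuba1c 383 CPM. Processed pseudogenes align too, among them Gm3226, at up to 30.2 CPM before TMM scaling. The part of these copies in the Slc7a11 result was not tested. Slc3a2, the heavy chain that anchors the exchanger and serves other amino acid transporters too, stood at 225 ± 11.2 CPM in Ctrl-DMSO and 2060 ± 69.8 CPM in Ctrl-Thap. It stood at 228 ± 10.1 CPM in Sh2-DMSO and 1080 ± 4.05 CPM in Sh2-Thap. In DMSO it was not called between the cell populations (log2 0.02, SE 0.05, adjusted p = 0.811). Its difference of thapsigargin effects was -0.95 (SE 0.06, adjusted p = 7.83e-14).

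**Figure D3:**
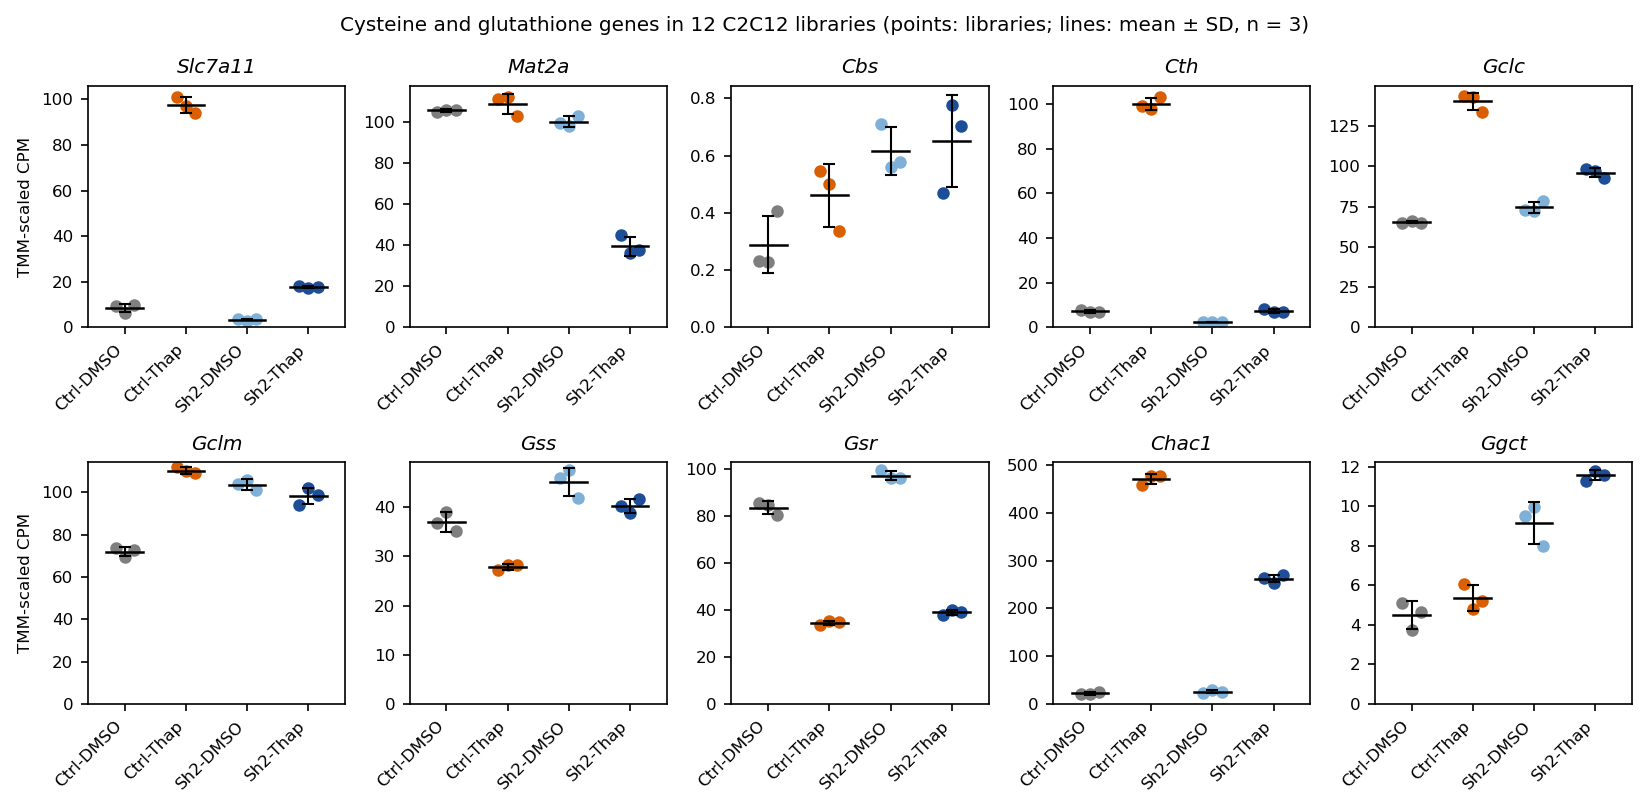
TMM-scaled CPM (vertical axes, each from 0) of the 10 genes in the 3 libraries of each group; points are libraries, long bars are means and error bars are SD. Slc7a11, Cth and Chac1 are highest in Ctrl-Thap, at 97.4, 99.8 and 471 CPM on average, Mat2a is low in Sh2-Thap alone, at 39.6 CPM, and Gsr is low in both thapsigargin groups.

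Mat2a (ENSMUSG00000053907, chromosome 6, 72432799 to 72439558, minus strand) encodes the catalytic subunit that turns methionine into S-adenosylmethionine, the step before homocysteine. It held 105, 106 and 106 CPM in Ctrl-DMSO, 111, 112 and 103 CPM in Ctrl-Thap, and 99.4, 98.2 and 103 CPM in Sh2-DMSO. In Sh2-Thap it held 44.8, 36 and 37.8 CPM, below every library of the other groups. Neither treatment alone gave a call: thapsigargin in control cells changed it by 0.04 on the log2 scale (SE 0.05, adjusted p = 0.48) and the knockdown in DMSO by -0.08 (SE 0.05, adjusted p = 0.251). In knockdown cells thapsigargin lowered it to 39.5% of its DMSO level (log2 -1.34, SE 0.06, adjusted p = 2.15e-19). The difference of the thapsigargin effects was -1.38 (SE 0.08, adjusted p = 4.89e-15). The antisense transcript Particl covers 11.3% of its exon bases and had 0 CPM in all libraries.

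Transsulfuration takes homocysteine to cysteine, first by Cbs and then by Cth. Cth (ENSMUSG00000028179, chromosome 3, 157894248 to 157925077, minus strand), which splits cystathionine to release cysteine, had the widest range of group means of the 10 genes, 5.34 on the log2 scale. Ctrl-DMSO libraries held 7.86, 6.79 and 6.76 CPM and Ctrl-Thap libraries 98.9, 97.8 and 103 CPM. Sh2-DMSO libraries held 2.41 ± 0.112 CPM on average and Sh2-Thap libraries 8.26, 7.03 and 6.75 CPM. The stressed knockdown libraries therefore overlapped the unstressed control libraries, while the other groups stood apart. Thapsigargin raised Cth 14-fold in control cells (log2 3.80, SE 0.07, adjusted p = 6.15e-30) and 3.04-fold in knockdown cells (log2 1.61, SE 0.11, adjusted p = 1.34e-14). The difference of -2.20 (SE 0.14, adjusted p = 6e-14) was the lowest among the 10 genes. Knockdown cells held 33.8% of the control level in DMSO (log2 -1.56, SE 0.11, adjusted p = 9.81e-14) and 7.37% under thapsigargin (log2 -3.76, SE 0.07, adjusted p = 1.01e-28).

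Cbs (ENSMUSG00000024039, chromosome 17, 31608894 to 31637238, minus strand), which joins homocysteine and serine into cystathionine, was barely detected, with 8 to 24 reads per library. Its mean was 0.289 ± 0.1 CPM in Ctrl-DMSO, 0.461 ± 0.11 in Ctrl-Thap, 0.617 ± 0.0826 in Sh2-DMSO and 0.651 ± 0.161 in Sh2-Thap. The knockdown in DMSO was called (log2 1.08, SE 0.38, adjusted p = 0.0189), with no overlap of libraries. The call was lost without Ctrl-DMSO replicate 1 (adjusted p = 0.0741), Ctrl-DMSO replicate 2 (0.0714) or Sh2-DMSO replicate 1 (0.0684). The other 4 comparisons gave no call for Cbs, with adjusted p from 0.127 to 0.852.

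Glutamate-cysteine ligase, the rate-limiting enzyme of glutathione synthesis, has a catalytic subunit encoded by Gclc and a modifier subunit encoded by Gclm. Gclc (ENSMUSG00000032350, chromosome 9, 77754535 to 77794485, plus strand) held 64.8, 66.3 and 65.1 CPM in Ctrl-DMSO and 144, 143 and 134 CPM in Ctrl-Thap. It held 73, 72.4 and 78.3 CPM in Sh2-DMSO and 98.4, 97.4 and 92.7 CPM in Sh2-Thap. The 4 groups did not overlap. Thapsigargin raised it 2.15-fold in control cells (log2 1.10, SE 0.05, adjusted p = 3.14e-20) and 1.29-fold in knockdown cells (log2 0.37, SE 0.05, adjusted p = 3.41e-08), a difference of -0.74 (SE 0.07, adjusted p = 1.09e-10). The knockdown raised Gclc slightly in DMSO (log2 0.19, SE 0.05, adjusted p = 0.00131) and lowered it to 68.5% of the control level under thapsigargin (log2 -0.55, SE 0.05, adjusted p = 4.97e-12).

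Gclm (ENSMUSG00000028124, chromosome 3, 122245557 to 122270732, plus strand) held 73.6, 69.5 and 72.7 CPM in Ctrl-DMSO, and the other groups lay closer together. Ctrl-Thap libraries held 112, 110 and 109 CPM, Sh2-DMSO libraries 104, 106 and 101 CPM, and Sh2-Thap libraries 94.2, 102 and 98.6 CPM. The last 2 groups overlapped. Thapsigargin raised Gclm in control cells (log2 0.62, SE 0.05, adjusted p = 6.58e-14) and was not called in knockdown cells (log2 -0.08, SE 0.05, adjusted p = 0.13). The difference was -0.70 (SE 0.06, adjusted p = 1.8e-10). The knockdown raised it in DMSO to 144% of the control level (log2 0.53, SE 0.05, adjusted p = 1.9e-11). Under thapsigargin it was lower in knockdown cells by a small margin (log2 -0.17, SE 0.05, adjusted p = 0.00207), a call that was lost when libraries were scaled by their totals only (log2 -0.03, adjusted p = 0.523). The exons of Gclm hold the pseudogene Gm6061 (244 bases), and 282 bases of a Gclm transcript align to Ppia at 99.6% identity, so reads there could be assigned to either. Mean Ppia was 1650 CPM in Ctrl-DMSO, 996 in Ctrl-Thap, 1810 in Sh2-DMSO and 1120 in Sh2-Thap, and its part in the Gclm result was not tested.

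The ratio of Gclc to Gclm within a library, each per kb of exon, differed by treatment and by cell population. It was 1.52 ± 0.0646 in Ctrl-DMSO and 2.13 ± 0.0716 in Ctrl-Thap. It was 1.2 ± 0.0824 in Sh2-DMSO and 1.64 ± 0.0947 in Sh2-Thap. Within each cell population the thapsigargin libraries lay above the DMSO libraries without overlap, and within each treatment the knockdown libraries lay below the control libraries without overlap. The part in this ratio of reads that Gclm shares with Ppia and Gm10123 was not tested. The ratio of Cth to Cbs ran from 10.6 ± 1.56 in Sh2-DMSO to 609 ± 180 in Ctrl-Thap, and its spread carries the few reads of Cbs.

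**Figure D4:**
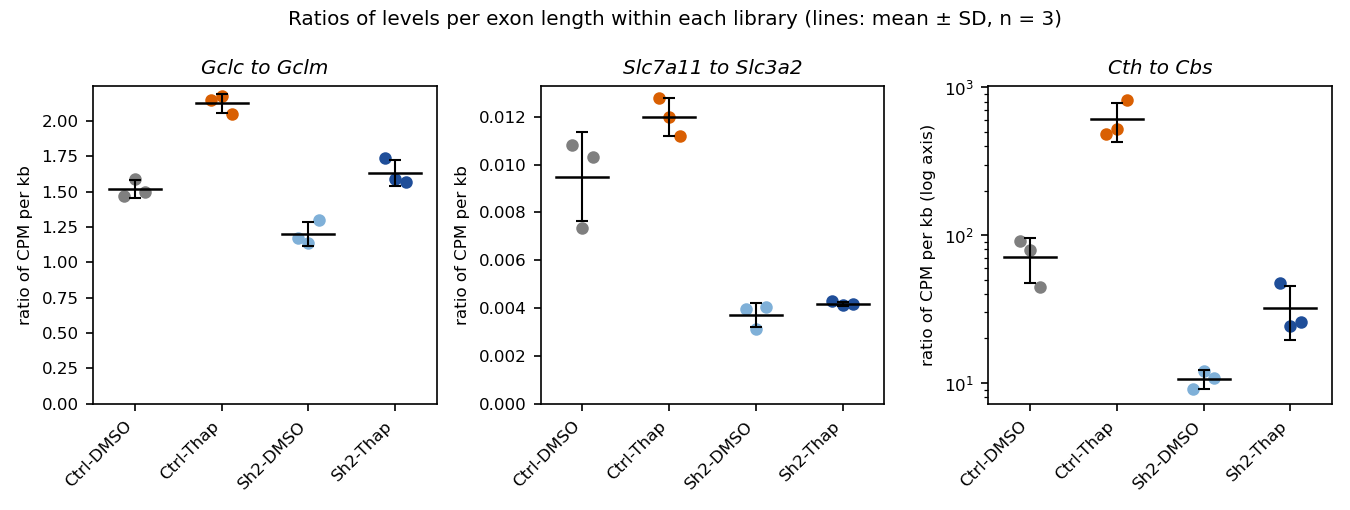
Ratios of CPM per kb of exon between gene pairs (vertical axes; the axis for Cth to Cbs is logarithmic) in the 3 libraries of each group, with mean and SD. The mean ratio of Gclc to Gclm is highest in Ctrl-Thap, 2.13, and lowest in Sh2-DMSO, 1.2, and the ratio of Slc7a11 to Slc3a2 is lower in both knockdown groups than in both control groups.

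Gss (ENSMUSG00000027610, chromosome 2, 155563181 to 155592810, minus strand), which adds glycine in the last step of glutathione synthesis, fell with thapsigargin, where the ligase genes rose in control cells. Ctrl-DMSO libraries held 36.8, 39.1 and 35.2 CPM and Ctrl-Thap libraries 27.2, 28.2 and 28.2 CPM. Sh2-DMSO libraries held 46, 47.6 and 42 CPM and Sh2-Thap libraries 40.3, 38.8 and 41.6 CPM. Ctrl-DMSO and Sh2-Thap overlapped. Thapsigargin lowered Gss in control cells (log2 -0.41, SE 0.06, adjusted p = 2.78e-07) and less so in knockdown cells (log2 -0.17, SE 0.06, adjusted p = 0.0122). The latter call was lost with scaling by library totals only (log2 -0.05, adjusted p = 0.484), without Sh2-DMSO replicate 2 (adjusted p = 0.0643) and without Sh2-Thap replicate 2 (0.05). The difference was 0.24 (SE 0.08, adjusted p = 0.0224), and it was lost without Ctrl-DMSO replicate 2, Ctrl-Thap replicate 1, Sh2-DMSO replicate 3 or Sh2-Thap replicate 3 (adjusted p 0.0566 to 0.115). Knockdown cells held more Gss in DMSO (log2 0.29, SE 0.06, adjusted p = 0.000119) and under thapsigargin (log2 0.53, SE 0.06, adjusted p = 3.62e-09). Genes on the opposite strand cover 15.4% of its exon bases; the most abundant of them, Acss2, stayed at or under 5.82 CPM in any library.

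Gsr (ENSMUSG00000031584, chromosome 8, 33652523 to 33698163, plus strand) encodes glutathione reductase, which returns oxidised glutathione to its reduced form at the cost of NADPH. Ctrl-DMSO libraries held 85.4, 84.6 and 80.5 CPM and Ctrl-Thap libraries 33.6, 35.3 and 34.8 CPM. Sh2-DMSO libraries held 99.4, 95.9 and 96.1 CPM and Sh2-Thap libraries 37.6, 39.9 and 39.1 CPM. Both thapsigargin groups lay far below both DMSO groups. Thapsigargin lowered Gsr to 41.4% of its DMSO level in control cells (log2 -1.27, SE 0.05, adjusted p = 2.49e-21) and to 40% in knockdown cells (log2 -1.32, SE 0.05, adjusted p = 1.7e-21). The difference of these effects was -0.05 (SE 0.07, adjusted p = 0.619) and was not called. The knockdown raised Gsr by 0.22 on the log2 scale in DMSO (SE 0.05, adjusted p = 0.000229) and by 0.17 under thapsigargin (SE 0.05, adjusted p = 0.00635).

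Chac1 (ENSMUSG00000027313, chromosome 2, 119351229 to 119354381, plus strand) encodes a gamma-glutamylcyclotransferase that cleaves glutathione in the cytosol, and it showed the highest rise with thapsigargin of the 10 genes. Ctrl-DMSO libraries held 20.3, 20.9 and 25.4 CPM and Ctrl-Thap libraries 458, 478 and 477 CPM. Sh2-DMSO libraries held 22, 28.1 and 24.8 CPM and Sh2-Thap libraries 263, 254 and 269 CPM. The DMSO groups overlapped each other and the thapsigargin groups did not. The rise was 21.2-fold in control cells (log2 4.41, SE 0.08, adjusted p = 1.46e-23) and 10.5-fold in knockdown cells (log2 3.39, SE 0.07, adjusted p = 2.59e-21). The difference was -1.02 (SE 0.10, adjusted p = 2.81e-08), and under thapsigargin knockdown cells held 55.7% of the control level (log2 -0.85, SE 0.06, adjusted p = 4.84e-11). In DMSO the knockdown was not called (log2 0.17, SE 0.08, adjusted p = 0.0752). It was called higher without Ctrl-DMSO replicate 3 (log2 0.28, adjusted p = 0.00212), without Sh2-DMSO replicate 1 (log2 0.25, adjusted p = 0.00702) and with no filter on low counts (adjusted p = 0.0224).

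Ggct (ENSMUSG00000002797, chromosome 6, 54982580 to 54992950, minus strand), which turns gamma-glutamyl amino acids left by glutathione breakdown into oxoproline, was higher in knockdown cells in both treatments. Ctrl-DMSO libraries held 5.1, 3.72 and 4.65 CPM and Ctrl-Thap libraries 6.08, 4.81 and 5.2 CPM. Sh2-DMSO libraries held 9.51, 9.99 and 7.98 CPM and Sh2-Thap libraries 11.3, 11.8 and 11.6 CPM. Both knockdown groups lay above both control groups. Knockdown cells held 204% of the control level in DMSO (log2 1.03, SE 0.12, adjusted p = 7e-09) and 216% under thapsigargin (log2 1.12, SE 0.11, adjusted p = 1.83e-10). Thapsigargin was called in knockdown cells (log2 0.34, SE 0.11, adjusted p = 0.00505) but not without Sh2-DMSO replicate 3 (log2 0.24, adjusted p = 0.0595). In control cells it was not called (log2 0.25, SE 0.12, adjusted p = 0.0746), but it was called without Ctrl-DMSO replicate 1 (adjusted p = 0.0297) or Ctrl-Thap replicate 2 (0.0375), with DESeq2 size factors (0.0458) and with a stricter filter on low counts (0.0401). The difference of the thapsigargin effects was 0.09 (SE 0.16, adjusted p = 0.702).

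Levels of different genes can be compared only per length, here as mean CPM per kb of the exons of all annotated isoforms, which understates genes with long rare isoforms. On that scale Gsr led in Ctrl-DMSO with 30.3, ahead of Mat2a with 23.5 and Gclc with 17.4, and Cbs was last with 0.0386. In Ctrl-Thap Chac1 led with 288, ahead of Gclc with 37.3 and Cth with 35.7. In Sh2-DMSO the order again began with Gsr, at 35.3, and in Sh2-Thap Chac1 led with 160, ahead of Gclc with 25.5. Cth stood the seventh in Ctrl-DMSO with 2.56 and the third in Ctrl-Thap, but the seventh again in Sh2-Thap with 2.63. In each thapsigargin group the level of Chac1 per kb was above that of every other gene of the 10.

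For the 4 genes with the widest range of group means, the genes of most similar pattern were sought among 10201 genes. The measure was the root mean square difference of log2 CPM over the 12 libraries, each gene centred on its own mean. Nearest to Slc7a11 were Slc6a9, a glycine transporter gene, at 0.25, Aldh1l2, a mitochondrial folate enzyme gene, at 0.27, and Dennd2d at 0.36. Nearest to Cth were Dennd2d at 0.42, Kif21b at 0.51 and Slc7a11 at 0.52. Nearest to Chac1 were Ddit3, which encodes the stress factor CHOP, at 0.14, Herpud1, an ER-associated degradation gene, at 0.23, and Gadd45a at 0.3. Nearest to Gsr were Cd81 at 0.08, Cox6b1, a subunit of cytochrome c oxidase, at 0.08, and Pttg1 at 0.09. Aldh1l2 stood at 105, 814, 42 and 182 CPM in Ctrl-DMSO, Ctrl-Thap, Sh2-DMSO and Sh2-Thap, and Ddit3 at 16.8, 405, 18 and 193 CPM. A smaller range makes a smaller difference easier to reach, so these distances do not compare across the 4 genes.

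A wider list of 107 genes around cysteine and glutathione, of which 90 were tested, gives the surroundings. It holds 10 regulators, among them Cebpg, Ddit3 and Trib3, so counts are also given over the 80 tested genes without them. In control cells thapsigargin raised 36 and lowered 39 of the 90 (28 and 38 of the 80), beside 37.7% of all genes higher and 37.0% lower. In knockdown cells it raised 20 and lowered 50 (13 and 49 of the 80), beside 35.4% and 34.4% of all genes. The knockdown raised 31 and lowered 25 in DMSO (28 and 20 of the 80), beside 25.0% and 26.5% of all genes. Under thapsigargin it raised 21 and lowered 46 (19 and 39 of the 80), beside 28.5% and 28.4%. The difference of the thapsigargin effects was called higher for 8 and lower for 36 (8 and 30 of the 80), beside 17.6% and 17.7%, with a median of -0.19 over the 90 and 0.01 over all genes. The plot of thapsigargin effects in each cell population shows these genes around the 10.

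**Figure D5:**
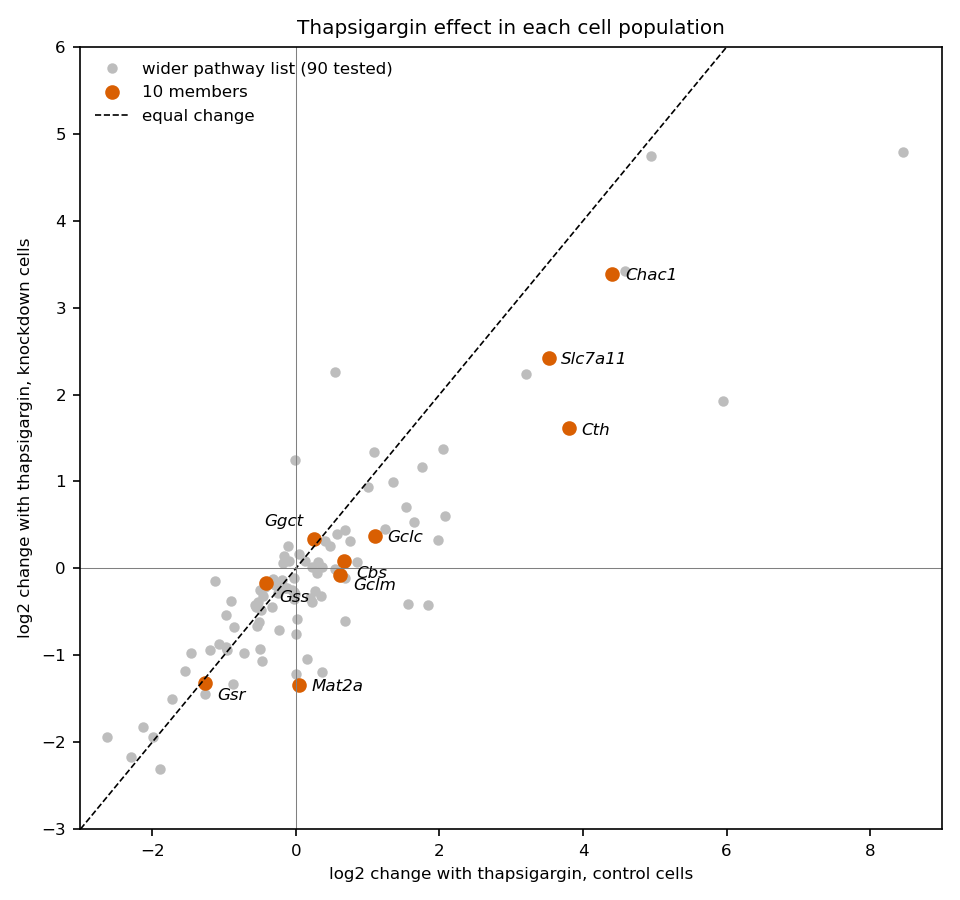
Log2 change with thapsigargin in control cells (horizontal axis) and in knockdown cells (vertical axis) for the 10 genes (orange) and the 90 tested genes of the wider list (grey); the dashed line marks equal change. Slc7a11, Cth, Chac1, Gclc, Gclm and Mat2a lie below the line, and Gsr lies next to it, at -1.27 and -1.32.

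Transporters of cystine, cysteine and glutamate rose with thapsigargin in control cells for 6 of 7 tested and fell for 1, beside 37.7% of all genes higher and 37.0% lower. Of those that rose, Slc1a1, Slc1a2 and Slc3a1 stayed near the floor, with means of 1.27, 0.665 and 0.295 CPM in Ctrl-Thap. Slc1a1 had no read in Ctrl-DMSO, so its test rests on reads in the thapsigargin libraries. In knockdown cells 3 rose and 2 fell, beside 35.4% and 34.4%. Slc1a1, at 0.374 CPM in Sh2-Thap, was among those that rose. Slc1a5, a transporter of glutamine and other neutral amino acids, stood at 46.5 ± 1.3 CPM in Ctrl-DMSO and 59.7 ± 2.33 CPM in Ctrl-Thap. It stood at 43.1 ± 3.09 CPM in Sh2-DMSO and 18.9 ± 0.906 CPM in Sh2-Thap, so the direction turned (difference -1.55, SE 0.08, adjusted p = 6.27e-16). Slc1a3, a glutamate transporter gene, was the 1 of the group that fell in control cells, from 5.7 ± 0.219 to 1.41 ± 0.235 CPM. Of 8 methionine cycle genes tested, 6 had a lower thapsigargin effect in knockdown cells and none a higher one, beside 17.7% of all genes lower and 17.6% higher.

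Glutathione transferases, which conjugate glutathione to other molecules, mostly fell with thapsigargin: 13 of 19 tested in control cells and 14 of 19 in knockdown cells, with 4 and 2 higher. Of all genes, 37.0% and 34.4% were called lower in those comparisons, and 37.7% and 35.4% higher. Gstm1 fell from 94.9 ± 3.27 to 15.3 ± 0.576 CPM in control cells and from 49.5 ± 0.766 to 12.9 ± 1.3 CPM in knockdown cells (difference 0.68, SE 0.09, adjusted p = 1.99e-07). Gsto1 rose in control cells from 145 ± 5.77 to 233 ± 6.87 CPM and fell in knockdown cells from 288 ± 18 to 191 ± 10.4 CPM (difference -1.27, SE 0.07, adjusted p = 4.56e-16). Its relative Gsto2 was higher in knockdown cells under thapsigargin, at 6.04 ± 0.958 against 2.46 ± 0.283 CPM. Gstt1 was lower in knockdown cells in DMSO, at 1.56 ± 0.164 against 5.04 ± 0.199 CPM. Among peroxidases, the ER-resident Gpx8 fell with thapsigargin from 161 ± 3.19 to 32.7 ± 0.542 CPM in control cells and from 242 ± 7.48 to 53.8 ± 3.97 CPM in knockdown cells. The knockdown raised it in both treatments (log2 0.58 and 0.72).

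Breakdown, reduction and supply genes gave the following. Unlike Chac1, its relative Chac2 fell with thapsigargin, from 6.78 ± 0.349 to 4.91 ± 0.0527 CPM in control cells. In knockdown cells Chac2 fell from 8.05 ± 0.547 to 6.46 ± 0.531 CPM. Ggt7, of the gamma-glutamyltransferase family, was lower in knockdown cells in both treatments, 9.14 ± 1.65 against 23.3 ± 1 CPM in DMSO and 10.3 ± 0.893 against 24.2 ± 1.11 CPM under thapsigargin. Anpep, an aminopeptidase gene, fell with thapsigargin from 126 ± 4.41 to 45.9 ± 3.18 CPM in control cells and from 74.9 ± 3.08 to 38.3 ± 1.92 CPM in knockdown cells. Of 10 genes for glutaredoxins, thioredoxins and their reductases, 8 were higher in knockdown cells in DMSO and none lower, beside 25.0% of all genes higher and 26.5% lower. Under thapsigargin 4 of the 10 were higher and 5 lower, beside 28.5% and 28.4%, and the difference of the thapsigargin effects was lower for 5 and higher for none, beside 17.7% and 17.6%. Glrx, which removes glutathione from protein thiols, fell with thapsigargin from 39.8 ± 1.3 to 10.7 ± 1.64 CPM in control cells and from 44.4 ± 0.955 to 8.92 ± 0.118 CPM in knockdown cells. All 7 genes of NADPH supply fell with thapsigargin in knockdown cells, and 5 of 7 fell in control cells with 1 higher, where 34.4% and 37.0% of all genes were called lower. Tkt, of the pentose phosphate pathway, stood at 73.6 ± 6.41 CPM in Ctrl-DMSO and 121 ± 5.82 CPM in Sh2-DMSO.

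Export and sulphide genes differed as well. Abcc4, a membrane exporter that can carry glutathione, had the lowest difference of the called genes of the wider list that reached 5 CPM in a group, -1.97 (SE 0.07, adjusted p = 7.33e-20). It rose with thapsigargin in control cells from 45.1 ± 1.61 to 133 ± 5.75 CPM and fell in knockdown cells from 54.2 ± 3.23 to 40.7 ± 1.05 CPM. Sqor, which oxidises hydrogen sulphide in mitochondria, stood at 62.1 ± 0.997 CPM in Ctrl-Thap and 22.9 ± 1.21 CPM in Sh2-Thap. Ethe1, of the same pathway, was higher in knockdown cells under thapsigargin, at 18.8 ± 1.47 against 12.3 ± 0.916 CPM, as was the sulphurtransferase gene Tst, at 8.77 ± 0.374 against 6.17 ± 0.368 CPM. Ppcdc, which decarboxylates a cysteine-derived intermediate on the way to coenzyme A, had a positive difference of thapsigargin effects (0.37, SE 0.12, adjusted p = 0.0117).

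Regulators of the 10 genes were measured in the same libraries. Atf4 transcript stood at 424 ± 11.6 CPM in Ctrl-DMSO and 1760 ± 18.5 CPM in Ctrl-Thap, and at 490 ± 10.5 CPM in Sh2-DMSO and 1270 ± 18.3 CPM in Sh2-Thap. Its rise was smaller in knockdown cells (difference -0.68, SE 0.06, adjusted p = 1.65e-11). Trib3, a feedback inhibitor of ATF4, rose with thapsigargin from 12.7 ± 1.81 to 391 ± 5.51 CPM in control cells and from 6.18 ± 1.15 to 167 ± 6.56 CPM in knockdown cells, a difference of -0.19 that was not called (SE 0.13, adjusted p = 0.256). Nfe2l2 was lower in knockdown cells in DMSO, at 200 ± 8.77 against 262 ± 10.6 CPM, and under thapsigargin, at 210 ± 11.3 against 325 ± 9.89 CPM. Mafk, which encodes a small partner of NRF2, was higher in knockdown cells in DMSO, at 45 ± 4 against 21.7 ± 0.393 CPM. Of its relatives in the same comparison, Mafg stood lower, at 104 ± 3.92 against 124 ± 4.75 CPM. Maff stood higher, at 61.8 ± 4.11 against 51.9 ± 1.19 CPM. These are transcript levels, and the amounts of the proteins were not measured here.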

How the data were processed

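The input was a table of read counts for each of 12 libraries, 3 in each of 4 groups. Per the submitters' processing notes, the authors used Trim Galore, STAR 2.5.3a, bedtools 2.31.0 and DESeq2 and named the mm10 and hg38 builds, and they deposited raw counts per gene. The counter, annotation release and strand are not given in the sources used here. The 5 entries that name no gene (13.32% to 14.61% of reads) were left out. GENCODE vM21 on GRCm38 gave names and positions for 53706 identifiers.

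The 10 genes, the wider list, the markers and the motifs were chosen with earlier results of these data known. Tests used edgeR 4.0.16 (TMM scaling, its filter on low counts, robust quasi-likelihood F test, 4 groups in 1 fit, 8 residual degrees of freedom), with Benjamini-Hochberg adjustment over 15828 genes and calls under 0.05. SEs are approximate: the size of a log2 change over the root of its F. The 5 comparisons were the knockdown within each treatment, thapsigargin within each cell population, and how far the 2 thapsigargin effects differ (knockdown minus control). From the wider list the text names Slc3a2, Cebpg, Atf4, Nfe2l2 and, in each comparison and direction, the 4 called genes of largest change that averaged 5 CPM or more in a compared group. Mafg, Maff, Chac2 and some transporters near the floor are named beside them. Near copies were sought with BLAST 2.17.0 (at least 95% identity over 200 bases). The fit was also run on simulated counts in which few genes changed, and only with the knockdown. That run cannot check the scaling or the difference of the thapsigargin effects. The alternatives tried were 3 scalings, 2 filters, a threshold of 0.01, DESeq2 1.42.0, voom of limma 3.58.1, fits of the compared groups alone, a replicate block and leaving out each library.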

Additional observations from a re-analysis of the deposited data

Results flagged for a closer look

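Among the 10 genes, 7 had a thapsigargin effect that differed between knockdown and control cells by the test of the difference itself (edgeR, adjusted p under 0.05). Over all genes tested, 17.6% were called higher and 17.7% lower by the same test. Whether the 10 genes as a set differ from other genes was not tested. The log2 change in knockdown cells minus that in control cells was -1.10 for Slc7a11, -1.38 for Mat2a, -2.20 for Cth, -0.74 for Gclc, -0.70 for Gclm and -1.02 for Chac1. For Gss it was 0.24. Mat2a differs from the other 6 in that its level in control cells did not change with thapsigargin beyond the threshold (adjusted p = 0.48), while it fell in knockdown cells.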

How the results depend on the processing

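Of 50 results for the 10 genes (10 genes in 5 comparisons), 43 kept their call under every alternative run for them, 20 to 22 each (a fit of the compared groups alone was not run for the difference, and Cbs gave no value under the stricter filter), and no result changed direction past the threshold. The other 7 were calls of Cbs, Gclm, Gss, Chac1 and Ggct, whose adjusted p stand beside them above. Scaling by library totals only gave a median log2 change of all genes of 0.15 for the knockdown under thapsigargin, in place of 0.02. It gave 0.12 for thapsigargin in knockdown cells, in place of 0.0, and 0.17 for the difference of the thapsigargin effects, in place of 0.01. With it 5204 genes were called higher and 1685 lower for that difference, in place of 2790 and 2804, and 6317 higher and 3167 lower for the knockdown under thapsigargin, in place of 4512 and 4495. At an adjusted p under 0.01, 0 of the 10 genes were called higher for the difference, in place of 1 (Gss); leaving out each library in turn gave 0 to 1.

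Replicate numbers did not pair the libraries: same-numbered deviations correlated at -0.03 to 0.077, none of 18 over 0.1, and 4 of 12 libraries correlated best with their own number. With the number as a replicate block, 2895 genes were called higher and 2875 lower for the difference, and 1 call among the 10 genes changed, Chac1 for the knockdown in DMSO (log2 0.17, adjusted p = 0.0417). Cbs rests on 8 to 24 reads per library.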
